A study of Rattus norvegicus with 16 samples.

Results

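The separation by diet interaction asks, gene by gene, whether a high fat diet went with the same difference in expression in rats that had been separated from the dam as in rats that had not. It is the log2 difference ELS-HFD minus ELS, less the log2 difference HFD minus control. A positive value means that the diet difference was higher in separated rats, and a negative value that it was lower. All 16 of the 16 libraries entered it, 4 per group, and 14208 of the 15580 genes in the deposited table were tested.

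RNA was sequenced from brain tissue of male Wistar rats, named as amygdala in the series design and as whole tissue lysate in the sample labels. Pups of the ELS-HFD group were taken from the dam for 3 h daily during 16 days that began on postnatal day 1, and later ate a high fat diet, while the ELS group was separated in the same way and ate chow. The HFD group stayed with the dam and later ate the high fat diet, and the control group stayed with the dam and ate chow. An elevated plus maze test at around day 57 preceded the division of each rearing group between the diets on day 60. The labels number the libraries of a group without saying that each came from its own animal, and they give no litter, so the p-values measure the spread between these libraries, which may in part be technical. The age at tissue collection is not given in the labels.

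The amygdala is a set of nuclei that assigns threat and reward value to stimuli, and its central part sends peptide-releasing inhibitory output to the hypothalamus and brainstem. Corticotropin-releasing hormone and glucocorticoid signalling there take part in the response to stress, and the same circuits carry signals on palatable food and satiety. Separation of pups from the dam and high fat feeding are each used in rodents to alter these systems, and an interaction is the part of their joint effect that their separate effects, added on the log2 scale, do not give.

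Total counts ranged from 11438086 to 23629824 per library, and levels are given as CPM, counts relative to the TMM-adjusted total of the library. Snap25, a synaptic protein of neurons, lay between 1470 and 1941 CPM, Slc17a7, the vesicular glutamate transporter of cortical and basolateral excitatory neurons, between 986.6 and 2025 CPM, and Gad1, the enzyme that makes GABA, between 286.3 and 465.1 CPM. Levels of choroid plexus and myelin transcripts differed between libraries by far more. Expressed for a marker list as the mean log2 CPM relative to the gene's mean over all libraries, choroid plexus genes stood at -4.77 in ELS-HFD 1, -2.26 in ELS 1 and -4.60 in ELS 2, and between -0.51 and 2.09 in the other 13. Myelin genes stood at 1.02 in ELS 3 and 0.85 in ELS 4, and between -0.85 and 0.32 elsewhere. Gene and list values that differed by over 1.5 times and by over 0.1 on the log2 scale without either set of libraries are given with and without them. In bulk tissue, fewer cells of a type and less RNA per cell cannot be told apart.

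No gene passed the interaction test. In edgeR's quasi-likelihood test with Benjamini-Hochberg adjustment, 0 of 14208 genes (0%) had an adjusted p under 0.05, and the smallest adjusted p was 0.999931. An unadjusted p under 0.05 was found for 317 genes (2.23%), of which 182 had a positive interaction (1.28%) and 135 a negative one (0.95%). An even spread of p-values would put 710 genes there, so the count lay below that level, and the smallest p of any gene was 0.00103. That order turned without ELS 3 and ELS 4, where 957 genes (6.64%, beside 5% for an even spread) had an unadjusted p under 0.05, and without ELS-HFD 4 they were 627 (4.39%). DESeq2 also called 0 genes, with 297 at an unadjusted p under 0.05, and limma voom with library quality weights called 0, with 420. Positive values made up 50.7% of all genes, the median was 0.002, and 90% of the genes lay between -0.42 and 0.40 on the log2 scale.

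**Figure D1:**
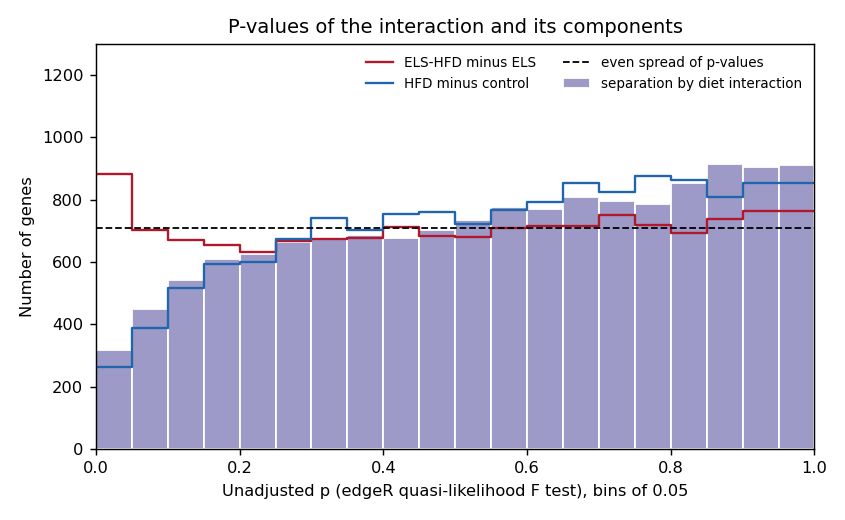
Number of genes (y axis) in each bin of unadjusted p (x axis, edgeR, bins of 0.05) for the interaction (bars), ELS-HFD minus ELS (red line) and HFD minus control (blue line), with the 710 genes per bin of an even spread as a dashed line. The lowest bin holds 317 genes for the interaction, 882 for the diet difference in separated rats and 262 for that in undisturbed rats.

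The 2 diet differences that make up the interaction were not alike in their number of low p-values. Among separated rats, ELS-HFD minus ELS had 882 genes at an unadjusted p under 0.05 and 1 gene (0.00704%) at an adjusted p under 0.05, Samd4a. The number passing was 0 without ELS 3 and ELS 4 and 116 without ELS 1, ELS 2 and ELS-HFD 1. In undisturbed rats, HFD minus control had 262 at an unadjusted p under 0.05 and 0 (0%) at an adjusted p under 0.05. The interaction is the test of the difference between them, and it called no gene. Read the other way, as the separation difference on each diet, ELS-HFD minus HFD had 252 genes and ELS minus control 472 genes at an unadjusted p under 0.05, with 0 passing after adjustment in both, or 23 in ELS minus control without ELS 1, ELS 2 and ELS-HFD 1. DESeq2 called 5 genes in ELS-HFD minus ELS, 1 in HFD minus control and 0 in each of the separation differences.

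The interaction combines the error of 4 group means and was measured less precisely than its components. Its median standard error (SE) was 0.173 on the log2 scale, against 0.123 for ELS-HFD minus ELS and 0.122 for HFD minus control. The 95% interval of a gene, taken gene by gene without adjustment, lay within a log2 value of 1 on either side of 0 for 11385 genes (80.1%), and within a 1.5-fold difference for 8451 (59.5%). The share was larger at higher levels. Of genes under 1 CPM, 4.10% had intervals within a log2 value of 1, of those from 1 to 10 CPM 60.3%, of those from 10 to 100 CPM 94.0%, and of those over 100 CPM 96.4%. For most genes over 10 CPM an interaction of more than 2-fold was therefore outside the interval, while for most genes under 1 CPM the interval was too wide to leave one out.

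Diet differences in the 2 rearings, which share no library, were weakly alike across genes. Over the 14208 genes, ELS-HFD minus ELS and HFD minus control had a Pearson r of 0.17 and a Spearman rank correlation of 0.17, and 8077 genes (56.8%) had the same sign in both. Separation differences on the 2 diets, ELS-HFD minus HFD and ELS minus control, had an r of 0.07 and a rank correlation of 0.02, with 51.3% of genes of the same sign. Genes of a library share its tissue makeup and are not independent, so these values are descriptions.

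**Figure D2:**
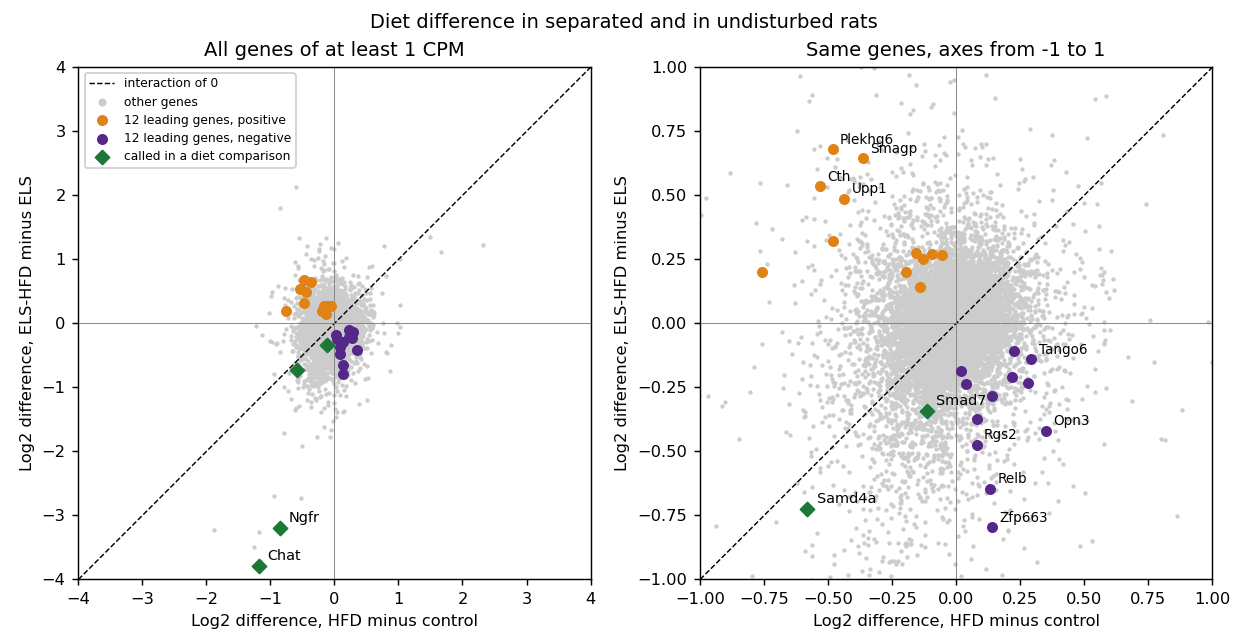
Log2 difference ELS-HFD minus ELS (y axis) against HFD minus control (x axis) for the 13428 genes with a mean of at least 1 CPM, on wide axes (left) and on axes from -1 to 1 (right). The dashed line marks an interaction of 0, with Samd4a near it at -0.14, while Plekhg6 at 1.16 lies above it and Relb at -0.78, Chat at -2.60 and Ngfr at -2.34 lie below it.

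Samd4a, an RNA-binding protein that represses translation of its target messages, was lower on the high fat diet in both rearings. It had 9.96, 9.25, 11.8 and 9.28 CPM in ELS-HFD, against 16.5, 16.1, 18.4 and 15.5 CPM in ELS. In undisturbed rats it had 10.3, 9.84, 10.1 and 11.0 CPM in HFD, against 14.8, 15.4, 16.9 and 14.5 CPM in control. All 4 ELS-HFD libraries lay below all 4 ELS libraries, as for 188 of the 14208 genes (1.32%), and the same held for the HFD libraries against the controls, as for 163 genes (1.15%). The diet difference was -0.72 ± 0.09 (log2 ± SE) in separated rats, where edgeR's adjusted p was 0.0153, and -0.58 ± 0.09 in undisturbed rats, where it was 0.199. Its interaction was -0.14 ± 0.13, with a 95% interval from -0.42 to 0.14 and an edgeR adjusted p of 0.999931, so the passing in one rearing and the miss in the other did not amount to a called difference between them. DESeq2 called Samd4a in both rearings, with adjusted p-values of 3.34e-07 for ELS-HFD minus ELS and 0.000921 for HFD minus control. The edgeR call in separated rats ended in 6 of the 16 fits that left out 1 library, those without ELS 1, ELS 2, ELS 3, ELS-HFD 1, ELS-HFD 2 or ELS-HFD 4, with smallest adjusted p-values from 0.0547 to 0.112, and also without ELS 3 and ELS 4 together, at 0.294. Over those 16 fits the interaction of Samd4a lay between -0.23 without ELS-HFD 3 and -0.09 without ELS 3.

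The authors' deposited table gives an adjusted p of at most 0.05 to 5 genes for ELS-HFD against ELS, to 1 for HFD against control, and to 0 for each separation comparison. Described here are Samd4a (4.27e-07 in the authors' deposited table), Smad7 and Chat (0.0201 each) and Ngfr (0.0445), and the 1 is Samd4a at 0.00112. The authors' deposited table holds no interaction. The edgeR interaction of these genes is the comparison of their diet difference between rearings.

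Smad7, the inhibitory Smad that limits TGF-beta signalling, had 37.7, 35.9, 41.2 and 37.4 CPM in ELS-HFD, against 48.1, 46.0, 49.3 and 49.2 CPM in ELS. It had 38.0, 38.8, 40.2 and 44.0 CPM in HFD, against 44.1, 43.5, 47.8 and 39.0 CPM in control. All 4 ELS-HFD libraries lay below all 4 ELS libraries, as for 188 of the 14208 genes (1.32%), while those of HFD and control overlapped. Smad7 is described because the authors called it in ELS-HFD against ELS, so the gap there is no separate support. The interaction was -0.23 ± 0.10, with a 95% interval from -0.43 to -0.02 and an unadjusted edgeR p of 0.0324, and it did not pass. Without ELS 3 and ELS 4 it was -0.20.

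Chat, which makes acetylcholine, and Ngfr, the p75 neurotrophin receptor of basal forebrain cholinergic neurons, were set apart by 2 ELS libraries. Chat had 0.481, 0.135, 0.301 and 0.908 CPM in ELS-HFD, against 1.72, 0.909, 16.8 and 6.07 CPM in ELS, with 0.603, 0.799, 0.460 and 0.748 CPM in HFD, against 0.627, 2.23, 2.95 and 0.164 CPM in control. Ngfr had 1.03, 1.55, 0.753 and 1.43 CPM in ELS-HFD, against 1.57, 1.24, 28.5 and 12.3 CPM in ELS, with 1.72, 1.01, 1.38 and 1.16 CPM in HFD, against 1.11, 4.18, 3.04 and 0.740 CPM in control. Both genes were highest in ELS 3 and ELS 4 of all 16 libraries. The interaction was -2.60 ± 1.28 for Chat and -2.34 ± 1.17 for Ngfr, with 95% intervals from -5.33 to 0.13 and from -4.82 to 0.14. Without ELS 3 and ELS 4 it was -0.33 for Chat and turned its sign to 0.61 for Ngfr, and without ELS 3 alone it was -1.46 for Chat and -1.23 for Ngfr.

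**Figure D3:**
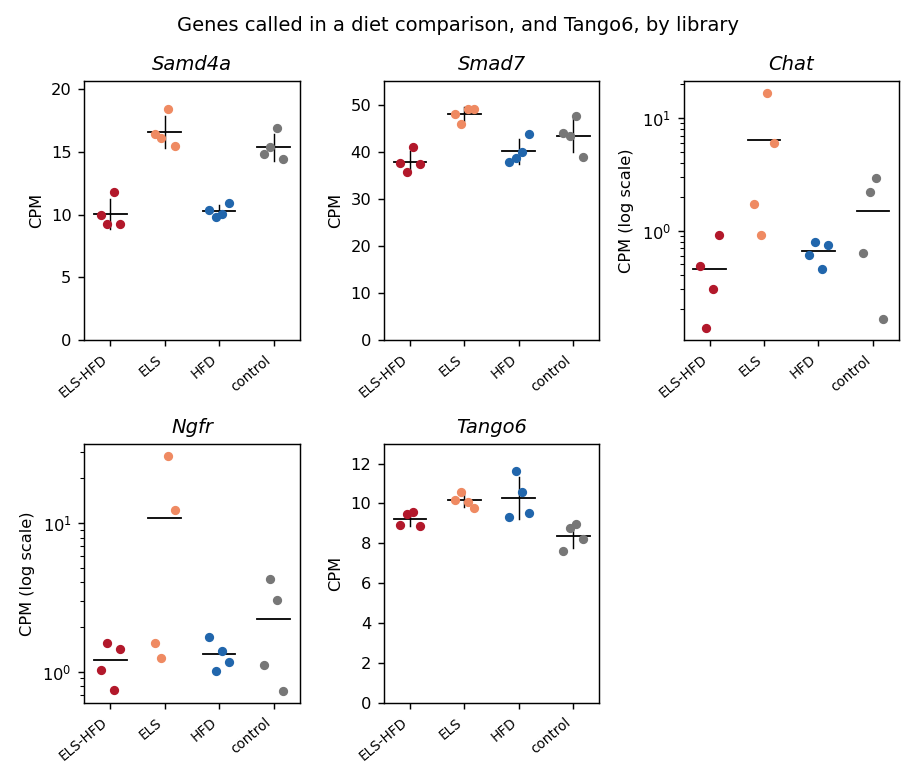
CPM of 5 genes (y axis, linear from 0, or a log scale for Chat and Ngfr) in each library of ELS-HFD, ELS, HFD and control (x axis). Points are libraries, horizontal bars are group means and, on linear axes, vertical lines are ± 1 SD (n = 4). Samd4a is near 10 CPM in both high fat groups, Chat and Ngfr are set apart by ELS 3 and ELS 4, and Tango6 is lower in ELS-HFD than in ELS but higher in HFD than in control.

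Among the genes with the smallest interaction p, none of which passed, the diet differences had opposite signs in the 2 rearings. The 12 named on the positive side had interactions from 0.28 to 1.16 with unadjusted edgeR p-values from 0.00103 to 0.00938, and the 12 on the negative side had interactions from -0.94 to -0.21 with p-values from 0.00194 to 0.0140. Every one of these 24 had an edgeR adjusted p of 0.999931, and they are given as values. All 12 positive genes had a positive diet difference in separated rats and a negative one in undisturbed rats, and all 12 negative genes had the reverse. For some, 1 of these differences lay within 1 SE of 0. In undisturbed rats Zbtb47 was at 0.02 ± 0.05 and Rgs2 at 0.08 ± 0.12, and in separated rats Ifit1bl was at 0.20 ± 0.23. For others neither did, such as Plekhg6 at 0.68 ± 0.21 in separated and -0.48 ± 0.21 in undisturbed rats. Over all genes the diet difference was positive for 49.4% in separated and 45.7% in undisturbed rats, and the separation difference for 51.3% on the high fat diet and 49.1% on chow. Since the interaction chose the 24, this pattern is a description and no support. In the positive set the ELS mean was the lowest of the 4 groups for 8 genes and the HFD mean for 4. The highest mean in that set was that of control for 7 genes and of ELS-HFD for 5. On the negative side the ELS-HFD mean was the lowest for 8 genes and the control mean for 4. The highest there was the ELS mean for 8 genes and the HFD mean for 4.

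Groups that did not overlap among these genes follow in part from how the genes were chosen. In the positive set all ELS-HFD libraries lay above all ELS libraries for 5 genes (1.21% over all genes), and all HFD libraries below all controls for 4 (1.15%). Along the other axis, ELS-HFD lay wholly above HFD for 2 genes (0.584%) and ELS wholly below control for 8 (0.753%). In the negative set ELS-HFD lay wholly below ELS for 5 (1.32%), HFD wholly above control for 3 (0.648%), ELS-HFD wholly below HFD for 4 (0.943%) and ELS wholly above control for 3 (0.859%).

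Hsf2, a heat shock transcription factor, had the smallest p of all genes. It had 41.4, 39.8, 37.7 and 37.8 CPM in ELS-HFD, against 31.7, 34.5, 28.7 and 35.0 CPM in ELS. In undisturbed rats it had 32.8, 36.1, 33.8 and 35.1 CPM in HFD, against 35.8, 36.5, 37.6 and 37.5 CPM in control. The separated groups did not overlap, and of the undisturbed ones HFD 2 lay above control 1. The diet difference was 0.27 ± 0.06 in separated rats and -0.10 ± 0.06 in undisturbed rats, giving an interaction of 0.37 ± 0.09 (95% interval 0.17 to 0.56).

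Plekhg6, an exchange factor that activates small GTPases, had the largest interaction of the 24. Its levels were low, with 2.61, 3.17, 1.88 and 3.05 CPM in ELS-HFD, against 1.33, 2.15, 1.29 and 1.95 CPM in ELS. They were 1.47, 1.72, 2.24 and 1.97 CPM in HFD, against 2.30, 2.86, 2.54 and 2.63 CPM in control. Only ELS-HFD 3 overlapped the ELS libraries, and the HFD libraries were all lower than the controls. The interaction was 1.16 ± 0.30 (95% interval 0.52 to 1.80).

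Fn3k, Upp1, Cth and Ust encode enzymes of metabolism or of sugar chains. Fn3k, the fructosamine 3-kinase that removes sugar adducts from proteins, had 25.8, 24.8, 22.7 and 25.8 CPM in ELS-HFD against 23.8, 22.1, 20.1 and 20.3 CPM in ELS, and 19.1, 20.7, 21.1 and 22.9 CPM in HFD against 23.5, 24.0, 23.3 and 25.3 CPM in control. ELS 1 overlapped ELS-HFD 3, the HFD and control libraries did not overlap, and the interaction was 0.40 ± 0.10. Uridine phosphorylase, Upp1, averaged 5.46 ± 0.514 CPM in ELS-HFD and 3.88 ± 1.02 CPM in ELS (SD, n = 4), and 4.06 ± 0.659 CPM in HFD and 5.49 ± 0.480 CPM in control, an interaction of 0.92 ± 0.25. Cystathionine gamma-lyase, Cth, which makes cysteine and hydrogen sulfide, was at 1.07 ± 0.36, with 5.88 ± 1.95 CPM in ELS-HFD, 4.06 ± 0.925 in ELS, 3.41 ± 0.667 in HFD and 4.98 ± 1.15 in control. The sulfotransferase Ust, which modifies chondroitin and dermatan sulfate, had an interaction of 0.80 ± 0.25, and ELS-HFD 2 alone stood at 13.0 CPM, against 7.76 to 8.51 CPM in the other ELS-HFD libraries.

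The rest of the positive set was mixed. The ubiquitin ligase Siah1 was at 0.28 ± 0.08, with ELS the lowest group at 31.3 ± 0.516 CPM. Lsm8, part of the ring of proteins bound to U6 RNA in the spliceosome, was at 0.43 ± 0.14 and Mycl, a transcription factor of the Myc family, at 0.38 ± 0.12. The adhesion glycoprotein Smagp was at 1.01 ± 0.29 and Wdr73, a WD-repeat protein, at 0.32 ± 0.11. Ifit1bl, of a family of interferon-induced genes whose near copies can share reads, was at 0.96 ± 0.31, from a mean of 1.71 ± 0.247 CPM in control against 1.2 ± 0.267 in ELS-HFD, 1.05 ± 0.256 in ELS and 1.00 ± 0.104 in HFD.

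Relb, the NF-kappaB subunit of the non-canonical pathway, led the negative side. It had 2.54, 2.7, 3.54 and 2.79 CPM in ELS-HFD, against 5.1, 3.8, 4.56 and 4.63 CPM in ELS. In undisturbed rats it had 3.10, 3.83, 3.35 and 3.67 CPM in HFD, against 2.86, 3.77, 3.12 and 2.96 CPM in control. The separated groups did not overlap and the undisturbed ones did. The diet difference was -0.65 ± 0.15 in separated rats and 0.13 ± 0.15 in undisturbed rats, and the interaction -0.78 ± 0.21 (95% interval -1.22 to -0.33).

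Signalling genes on the negative side included Rgs2, a GTPase activator that dampens Gq-coupled receptors, at -0.55 ± 0.18. It averaged 32.5 ± 5.04 CPM in ELS-HFD and 45.1 ± 5.80 CPM in ELS, and 37.6 ± 3.62 CPM in HFD and 35.5 ± 5.15 CPM in control. The non-visual opsin Opn3 was at -0.77 ± 0.24, with 3.10 ± 0.568 CPM in ELS-HFD, 4.14 ± 0.616 in ELS, 3.50 ± 0.459 in HFD and 2.73 ± 0.412 in control. Gmeb2, which binds the glucocorticoid modulatory element, was at -0.51 ± 0.18, the homeobox factor Cux1 at -0.42 ± 0.15, and the zinc finger genes Zbtb47 and Zfp663 at -0.21 ± 0.07 and -0.94 ± 0.34. Nol12 and Pwp1, nucleolar proteins of ribosomal RNA processing, were at -0.43 ± 0.13 and -0.33 ± 0.11, the last -0.17 without the 3 choroid-poor libraries ELS 1, ELS 2 and ELS-HFD 1. Slc35f6, of a family of nucleotide sugar transporters, was at -0.27 ± 0.08, with ELS at 44.7 ± 2.04 CPM the highest group. Dpy19l1, which attaches mannose to tryptophan, was at -0.46 ± 0.16, or -0.29 without ELS 3 and ELS 4.

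**Figure D4:**
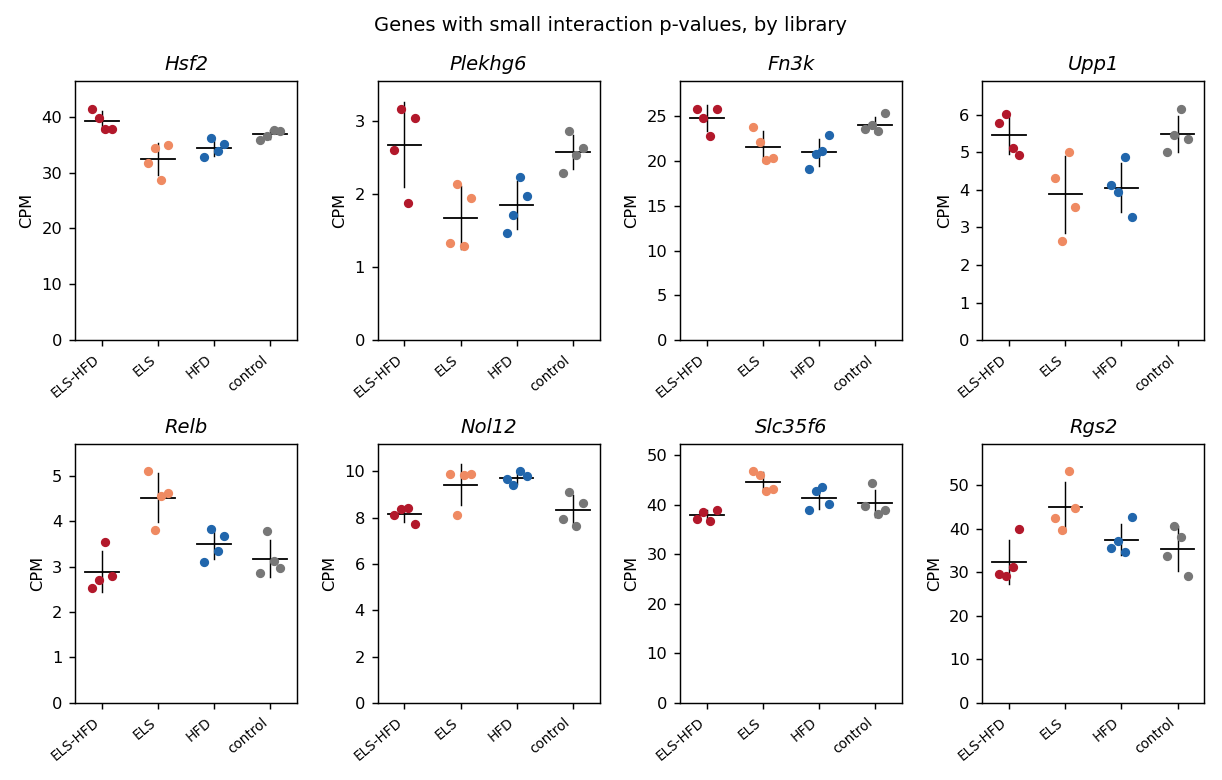
CPM (y axis, from 0) of 8 of the genes with small interaction p-values in each library of ELS-HFD, ELS, HFD and control (x axis), with group means as horizontal bars and ± 1 SD as vertical lines (n = 4). In the upper row ELS-HFD has a higher mean than ELS and HFD a lower mean than control, and in the lower row the order is turned round. None passed the interaction test.

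A stricter form of crossing, in which the groups do not overlap in either rearing and lie in opposite order, was met by 2 genes. In Tango6, a gene named for Golgi transport in Drosophila, all 4 ELS-HFD libraries lay below all ELS libraries and all 4 HFD libraries above all controls, which held for 1 gene (0.00704%). It had 8.93, 9.45, 9.56 and 8.89 CPM in ELS-HFD, against 10.2, 10.6, 10.1 and 9.76 CPM in ELS. It had 9.31, 11.6, 10.6 and 9.52 CPM in HFD, against 7.59, 8.78, 8.95 and 8.22 CPM in control. Taken singly, the gap in separated rats was met by 188 genes (1.32%) and that in undisturbed rats by 92 (0.648%). The diet difference of Tango6 was -0.14 ± 0.09 in separated rats (unadjusted edgeR p 0.137). In undisturbed rats it was 0.29 ± 0.09 (unadjusted edgeR p 0.00502). The interaction of Tango6 was -0.43 ± 0.13, with an edgeR p of 0.00368 before adjustment and 0.999931 after it. The opposite order was also met by 1 gene (0.00704%), listed as AABR07049064.1 (ENSRNOG00000006721), which is named here after its values were seen. It averaged 1.27 ± 0.132 CPM in ELS-HFD and 0.832 ± 0.119 CPM in ELS, and 1.07 ± 0.105 CPM in HFD and 1.48 ± 0.298 CPM in control, with an interaction of 1.09 ± 0.28. Its gap in separated rats was met singly by 172 genes (1.21%) and that in undisturbed rats by 163 (1.15%).

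Lists of genes for pathways and cell types were described by their counts and medians. They were 33 in number with 671 distinct genes tested, and no member of any list passed the interaction test. An unadjusted edgeR p under 0.05 was found for 14 of the 671 (2.09%), beside 2.23% of all genes. Of all genes 50.7% were positive and 49.3% negative, the shares to set beside the counts of each list. The median interaction was within 0.1 of 0 for 20 lists and beyond 0.4 for 6, beside a median of 0.002 over all genes. These 6 were 5 lists of neurons, peptides and myelin below 0 and the red cell list above it. With 1 library left out at a time, the median kept its sign in all 16 fits for 12 lists and turned in at least 1 fit for 21, none of which had a median beyond 0.19 on either side of 0.

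Central amygdala markers, the list closest to the tissue named in the design, had 16 of 17 tested members negative and a median of -0.45. Over all genes 49.3% were negative. The list's median was -0.31 without control 4, -0.49 without ELS 3 and ELS 4 and -0.69 without ELS-HFD 4. At an unadjusted edgeR p under 0.05 stood 4 of its members (23.5%), beside 2.23% of all genes. They were the peptide genes Nts, Crh and Pdyn and the transcription factor Isl1. The list level was -0.92, -0.60, -0.37 and 0.25 in ELS-HFD, against 0.19, 0.28, 0.64 and 0.31 in ELS, and 0.18, 0.15, -0.08 and 0.07 in HFD, against -0.03, 0.25, 0.55 and -0.87 in control. ELS-HFD 1 and control 4 were the lowest of all 16 libraries, and ELS-HFD 4 lay with the ELS group.

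Nts, which encodes neurotensin, had 3.64, 5.47, 7.83 and 11.0 CPM in ELS-HFD, against 20.8, 18.9, 21.9 and 10.3 CPM in ELS. In undisturbed rats it had 24.8, 19.3, 12.6 and 12.7 CPM in HFD, against 10.9, 19.9, 26.3 and 5.10 CPM in control. ELS-HFD 4 overlapped ELS 4, and the undisturbed groups overlapped widely. The interaction was -1.52 ± 0.60 (95% interval -2.80 to -0.24), between -1.88 and -1.25 when 1 library was left out, and -1.15 without the choroid-poor libraries.

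Crh, which encodes corticotropin-releasing hormone, the peptide that starts the hormonal stress response, had 1.17, 2.90, 3.77 and 4.87 CPM in ELS-HFD, against 4.63, 9.75, 5.98 and 7.59 CPM in ELS. It had 6.98, 7.02, 6.64 and 6.94 CPM in HFD, against 5.23, 7.68, 9.03 and 2.14 CPM in control. ELS-HFD 4 overlapped ELS 1, and the HFD libraries lay within the range of control. Its interaction was -1.32 ± 0.55 (95% interval -2.48 to -0.15). Pdyn, the precursor of the dynorphin opioid peptides, was at -1.43 ± 0.66, with 9.34, 17.1, 17.2 and 41.5 CPM in ELS-HFD against 48.5, 39.6, 81.8 and 53.4 CPM in ELS. Control 4 at 9.86 CPM lay beside the lowest ELS-HFD library for this gene, while the other control libraries were between 26.9 and 70.7 CPM and the HFD libraries between 32.5 and 42.9 CPM. With 1 library left out, the interaction of Pdyn lay between -1.99 without ELS-HFD 4 and -1.14 without control 4.

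The full list of neuropeptides, which shares 6 tested genes with the central amygdala list, had 13 of 18 members negative and a median of -0.40. Its 4 members at an unadjusted edgeR p under 0.05 (22.2%, beside 2.23% of all genes) were Nts, Crh and Pdyn below 0 and Cartpt above it. Nts, Crh and Pdyn are the same genes already counted in the central amygdala list. Cartpt, the precursor of a peptide that lowers food intake, had 34.5, 25.0, 15.7 and 7.72 CPM in ELS-HFD, against 9.09, 13.7, 5.27 and 7.01 CPM in ELS. It had 18, 14, 21.8 and 13.3 CPM in HFD, against 18.3, 18.6, 17.6 and 9.54 CPM in control, and its interaction was 1.19 ± 0.54. ELS-HFD 4 overlapped the ELS libraries. The list's median was -0.11 without the choroid-poor libraries, -0.60 without ELS 3 and ELS 4 and -0.26 without ELS 2. Cartpt is also the leading member of the hypothalamic marker list, whose 10 tested members were 5 positive and 5 negative around a median of 0.07 (0.54 without the choroid-poor libraries, 0.18 without ELS 3 and ELS 4, and -0.39 without either ELS-HFD 3 or ELS-HFD 4), with no interval inside a log2 value of 1.

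Receptors for stress hormones and neuropeptides were near the middle of all genes, with 9 of 23 positive and a median of -0.09, or 0.22 without the choroid-poor libraries. Oprk1, the kappa opioid receptor to which dynorphins bind, was at -0.85 ± 0.44, or -0.35 without the choroid-poor libraries. Glucocorticoid-induced genes had 6 of 20 positive and a median of -0.06, or -0.29 without the choroid-poor libraries and 0.22 without ELS 3 and ELS 4. Zbtb16, a zinc finger factor that glucocorticoids induce, had 15.2, 21.7, 11.7 and 15.1 CPM in ELS-HFD, against 7.6, 7.77, 6.94 and 12.9 CPM in ELS, and 11.7, 10.3, 16.4 and 21.0 CPM in HFD, against 14.3, 14.5, 9.77 and 24.8 CPM in control. ELS 4 overlapped ELS-HFD 3, and the undisturbed groups overlapped throughout. Its interaction of 0.95 ± 0.42 had an unadjusted edgeR p of 0.0380 and did not pass. It was the only one of the list at an unadjusted p under 0.05 (5%, beside 2.23% of all genes). With 1 library left out it lay between 0.65 without control 4 and 1.19 without ELS 4.

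Immediate early genes, which neurons induce within minutes of firing, had 17 of 24 members negative and a median of -0.22. The diet difference had a median of -0.11 in separated rats and 0.11 in undisturbed rats. Egr4 had 45.2, 35.8, 32.2 and 56.7 CPM in ELS-HFD, against 43.7, 56.0, 62.6 and 52.2 CPM in ELS, and 33.5, 43, 41.8 and 70.3 CPM in HFD, against 39.6, 32.7, 43 and 24.7 CPM in control. Both pairs of groups overlapped, and HFD 4 was the highest of all 16 libraries. The transcription factor genes Egr4 and Egr1 had interactions of -0.77 ± 0.32 and -0.62 ± 0.29. Of the list's members, these 2 genes (8.33%, beside 2.23% of all genes) had an unadjusted edgeR p under 0.05. Without HFD 4 they were -0.51 and -0.42 and the list's median was -0.11.

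Striatal medium spiny neuron markers, 5 of which are also in the central amygdala list, had 15 of 17 members negative and a median of -0.45. The list level was -0.86, -0.79, -0.19 and 0.70 in ELS-HFD, against 0.13, 0.07, 1.14 and 0.55 in ELS, and -0.20, -0.02, -0.29 and 0.20 in HFD, against 0.01, -0.03, 0.54 and -0.96 in control. Its median was -0.07 without ELS 3 and ELS 4, -0.73 without the choroid-poor libraries, -0.14 without ELS 3 alone, -0.28 without control 4, and -0.69 without ELS-HFD 4. The same libraries were high or low on the central amygdala list, and the part of tissue makeup in the Nts, Crh and Pdyn values was not tested. Rasd2, a striatal GTPase, was at -0.71 ± 0.38, and -1.11 without ELS-HFD 4, which held 193.6 CPM beside 82.0 to 92.2 CPM in the other ELS-HFD libraries.

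Cholinergic neuron markers were negative in 10 of 10 and had the lowest median of the 33 lists, at -1.56. Their level was -0.95, -1.18, -0.61 and -0.11 in ELS-HFD, against -0.17, -0.21, 2.56 and 1.65 in ELS, with -0.21, -0.44, -0.50 and -0.36 in HFD, against 0.06, 0.57, 0.84 and -0.91 in control. ELS 3 and ELS 4 stood above all others. Without them the median was 0.23, without ELS 3 alone it was -0.80, and without the choroid-poor libraries -2.25. Isl1, a LIM homeobox factor of cholinergic and some central amygdala neurons, was the only member at an unadjusted edgeR p under 0.05 (10%, beside 2.23% of all genes). Its interaction was -2.21 ± 1.03 (95% interval -4.39 to -0.03), or -1.62 without ELS 3 and ELS 4. It had 0.137, 0.135, 0.678 and 1.56 CPM in ELS-HFD, against 1.72, 3.88, 7.07 and 4.12 CPM in ELS. These groups did not overlap, as for 1.32% of all genes in that direction. In HFD it had 3.45, 2.77, 1.25 and 1.63 CPM, against 3.00, 3.87, 5.91 and 0.164 CPM in control, groups that did.

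Myelin and oligodendrocyte genes were negative in 24 of 24, with a median of -0.56. No member had an unadjusted edgeR p under 0.05, and the smallest, of the lineage factors Olig1 and Olig2, went with interactions of -0.33 ± 0.16 and -0.31 ± 0.17. The list level was -0.85, -0.38, 0.32 and -0.37 in ELS-HFD, against -0.13, -0.28, 1.02 and 0.85 in ELS, and 0.08, -0.18, -0.16 and -0.26 in HFD, against 0.05, 0.03, 0.03 and 0.24 in control. Without ELS 3 and ELS 4 the median was 0.07, without ELS 3 alone -0.31, without ELS-HFD 3 -0.87 and without the choroid-poor libraries -0.88. Olig1 and Olig2 were -0.08 and -0.07 without ELS 3 and ELS 4, and -0.50 and -0.50 without the choroid-poor libraries. Precursors of oligodendrocytes had 6 of 10 markers positive and a median of 0.09, which turned to -0.07 without control 4.

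**Figure D5:**
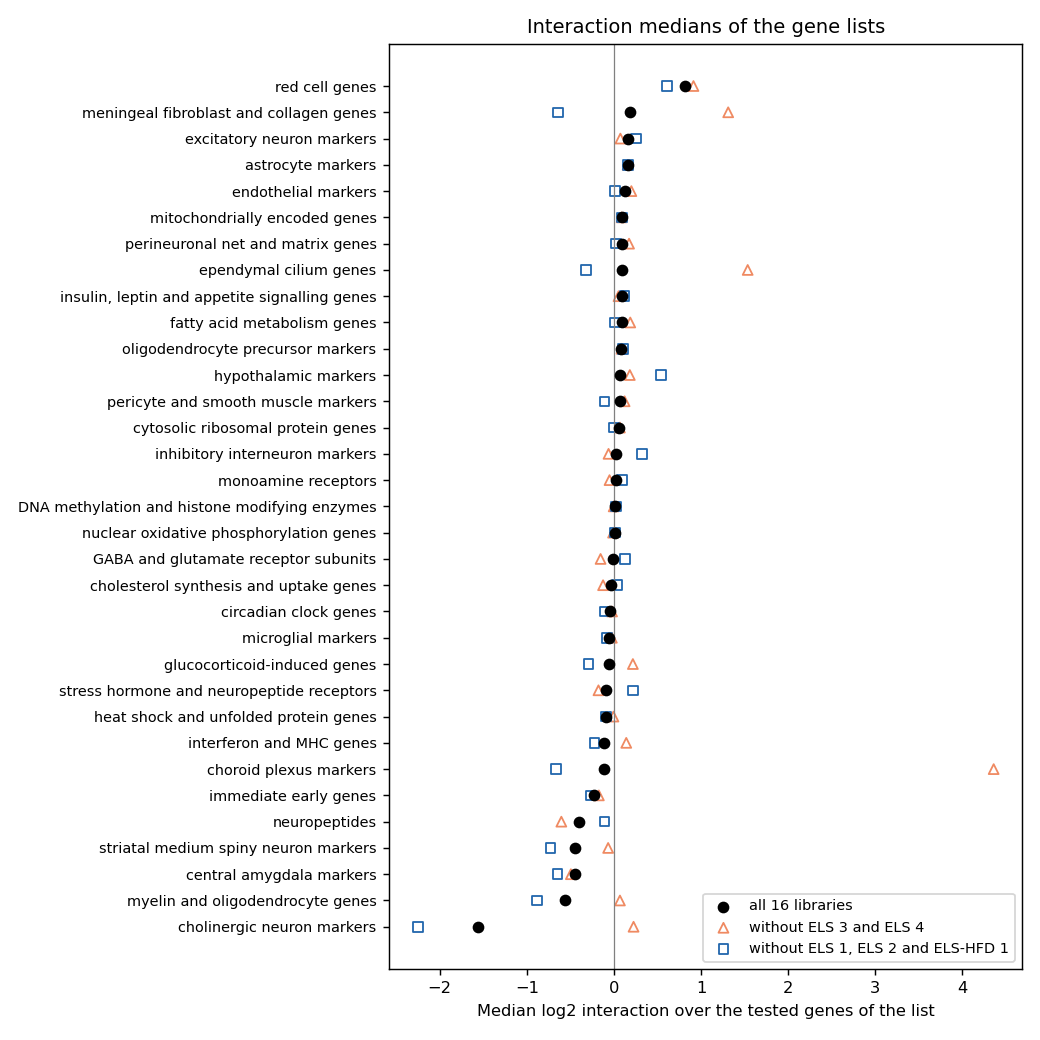
Median log2 interaction over the tested genes (x axis) of each of the 33 gene lists (y axis), from all 16 libraries (filled circles), without ELS 3 and ELS 4 (triangles) and without ELS 1, ELS 2 and ELS-HFD 1 (squares). With all libraries the medians run from -1.56 for cholinergic markers to 0.82 for red cell genes, and the triangles for myelin and cholinergic markers lie at 0.07 and 0.23.

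Lists tied to the fluid spaces gave medians that turned with the libraries included. Choroid plexus markers had a median of -0.12 with 16 of 18 negative, but it was 4.36 without ELS 3 and ELS 4 and -0.66 without the choroid-poor libraries, and no member had an interval within a log2 value of 1. Ttr, the transthyretin gene and the most abundant of these, ranged from 0.275 to 12226 CPM. Ependymal cilium genes had a median of 0.09, which was 1.54 and -0.32 in the same 2 fits, and meningeal fibroblast and collagen genes one of 0.19, which was 1.31 and -0.64. Dcn, the matrix proteoglycan decorin, was at 1.57 ± 0.58, with 23.4, 42.8, 23.0 and 10.3 CPM in ELS-HFD against 8.54, 11.1, 15.5 and 15.7 CPM in ELS. It had 15.0, 11.6, 17.4 and 8.64 CPM in HFD, against 23.2, 15.5, 8.70 and 32.9 CPM in control, and both pairs of groups overlapped.

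Red cell genes were positive in 5 of 5, with a median of 0.82, 0.91 without ELS 3 and ELS 4 and 0.61 without the choroid-poor libraries. At an unadjusted edgeR p under 0.05 were 2 of them (40%, beside 2.23% of all genes), both identifiers listed as Hba-a2. The more abundant of these (ENSRNOG00000029886), an alpha globin with near copies that can share reads, had 145, 107, 142 and 85.5 CPM in ELS-HFD, against 89.99, 73.0, 99.6 and 91.8 CPM in ELS. It had 162, 73.1, 87.4 and 91.5 CPM in HFD, against 131, 148, 100 and 159 CPM in control, and its interaction was 0.82 ± 0.32. ELS-HFD 4 overlapped the ELS libraries, and HFD 1 was the highest of all 16. The part of blood left in the tissue in these values was not tested.

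Nearly all astrocyte, endothelial and microglial markers had 95% intervals within a log2 value of 1, as did 80.1% of all genes. Astrocyte markers were positive in 16 of 18 with a median of 0.17 and no value beyond 0.28 on that side, and 17 of the 18 intervals lay within a log2 value of 1. Without control 4, the library highest on this list, the median was 0.05. Gja1, the gap junction protein connexin 43, was at 0.27 ± 0.16, or 0.10 without control 4, which held 772 CPM beside 506 to 537 CPM in the other controls. Endothelial markers had 10 of 14 positive and a median of 0.13, which was 0.01 without the choroid-poor libraries and -0.0071 without control 4, and microglial markers 4 of 16 positive and a median of -0.06, and every interval of both lists lay within a log2 value of 1. Pericyte and smooth muscle markers had 8 of 14 positive and a median of 0.07, or -0.11 without the choroid-poor libraries.

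Excitatory neuron markers had 10 of 15 positive and a median of 0.17, which was -0.01 without control 4 and 0.02 without ELS 3. Inhibitory interneuron markers had 9 of 15 positive and a median of 0.03, or 0.32 without the choroid-poor libraries. Reln, an extracellular protein made by some of these interneurons and a member of the perineuronal net and matrix list too, had 31.2, 39.1, 22 and 27.1 CPM in ELS-HFD, against 22.2, 19.4, 22.6 and 31.2 CPM in ELS. It had 20.7, 14.2, 27.6 and 19.9 CPM in HFD, against 27.2, 20.7, 25.6 and 43.6 CPM in control. Both pairs overlapped, and control 4 was the highest of all 16 libraries. The interaction of Reln was 0.83 ± 0.34. With 1 library left out it lay between 0.57 without control 4 and 1.01 without HFD 3. The matrix list as a whole had 9 of 15 positive around a median of 0.09, which turned to -0.04 without control 4. GABA and glutamate receptor subunits divided evenly, with 16 of 32 on each side and a median of -0.01 (0.13 without the choroid-poor libraries and -0.15 without ELS 3 and ELS 4), and monoamine receptors had 11 of 19 positive and a median of 0.03.

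Every tested gene of oxidative phosphorylation and cholesterol metabolism had a 95% interval within a log2 value of 1, beside 80.1% of all genes. Nuclear genes of oxidative phosphorylation had 39 of 64 positive, a median of 0.01 and values from -0.11 to 0.21, and all 64 intervals lay within a log2 value of 1. Mitochondrially encoded genes were positive in 12 of 12, from 0.04 to 0.24 with a median of 0.10, which was -0.0040 without control 4, the library highest on this list at 0.43, and none had an unadjusted edgeR p under 0.05. Mt-cyb, the cytochrome b of complex III, was at 0.18 ± 0.17. Genes of cholesterol synthesis and uptake had 9 of 24 positive and a median of -0.03, with all 24 intervals within a log2 value of 1. The sterol transporter Stard4 was at -0.30 ± 0.16, with 10.4 ± 0.849 CPM in ELS-HFD, 10.2 ± 1.39 in ELS, 12.1 ± 0.715 in HFD and 9.64 ± 1.09 in control.

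Fatty acid metabolism genes had 21 of 31 positive, values from -0.71 to 0.66, 27 of 31 intervals within a log2 value of 1, and a median of 0.09, which was -0.0054 without control 4. Among them was Ppara, a nuclear receptor that fatty acids activate, at 0.66 ± 0.33, or 0.39 without control 4. Insulin, leptin and appetite signalling genes had 15 of 28 positive and a median of 0.09. Igfbp5, which binds insulin-like growth factors, had 302, 357, 314 and 192 CPM in ELS-HFD, against 170, 226, 185 and 212 CPM in ELS, and 211, 185, 297 and 198 CPM in HFD, against 254, 267, 167 and 486 CPM in control. ELS-HFD 4 overlapped the ELS libraries and control 4 was the highest of all 16. Its interaction was 0.95 ± 0.37, or 0.59 without control 4. Mc4r, the melanocortin receptor that limits food intake, was at -0.50 ± 0.31, or -0.22 without ELS 3 and ELS 4.

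Among the remaining lists, interferon and MHC genes had 11 of 31 positive and a median of -0.11, or -0.22 without the choroid-poor libraries and 0.14 without ELS 3 and ELS 4. Cytosolic ribosomal protein genes had 49 of 60 positive and a median of 0.05, and heat shock and unfolded protein genes 3 of 23 positive and a median of -0.10, with the chaperone Hspa8 at -0.14 ± 0.12. No member of these 3 lists had an unadjusted edgeR p under 0.05. Circadian clock genes had 7 of 19 positive and a median of -0.04. Rora, a nuclear receptor that drives the clock gene Bmal1, was their only member under that level (5.26%, beside 2.23% of all genes). It was at -0.70 ± 0.32, with 1.25 ± 0.328 CPM in ELS-HFD, 2.03 ± 0.392 in ELS, 1.99 ± 0.215 in HFD and 1.99 ± 0.430 in control. Enzymes of DNA methylation and histone modification had 18 of 32 positive and a median of 0.02, with 31 of 32 intervals within a log2 value of 1 and Tet1, which oxidises methylcytosine, at 0.65 ± 0.34.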

How the data were processed

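Libraries of 16 brain samples started from 15 ng of RNA, reverse transcribed with an oligo-dT primer, per the labels' protocols. The tools STAR, HTSeq, Picard, cutadapt and DESeq2 and the genome build Rnor_6.0 are listed, with no version or role, per the submitters' processing notes. The authors deposited raw counts per Ensembl gene for 15580 genes, per the file headers. The deposited table also holds the authors' log2 fold changes and their p-values and adjusted p-values, which are printed only where that table is named. The 16 columns of normalized values were not used. Strand and molecular identifiers are not given in the sources used here, so antisense partners and near copies are uncertain.

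The counts were tested with the two-sided quasi-likelihood F test of edgeR 4.0.16 (R 4.3.3), with TMM factors from 0.952 to 1.029 and filterByExpr (minimum count 10, minimum total 15), which left out 1372 genes. One model with a mean per group over all 16 libraries gave 5 contrasts, the interaction and its 4 components, each adjusted by Benjamini-Hochberg over 14208 genes at a threshold of 0.05. The SE is the absolute log2 value divided by the square root of F, and intervals use the t quantile of the fit. For some genes of low level the edgeR p was larger than this SE gives, so their intervals may be too narrow. An example is Smagp in HFD minus control, at -0.37 ± 0.20 with an unadjusted edgeR p of 0.166. CPM were computed from the counts with the TMM factors. List levels use log2 CPM with a prior count of 2, computed here. The fit was tried on simulated counts with known interactions. These were drawn gene by gene, without the differences in tissue makeup between libraries, so they do not show how the fit handles such differences. Alternatives were median-of-ratios scaling, no filter, DESeq2 1.42.0, limma 3.58.1 (voom), the replicate number as a block, the letter N or B in the library names (meaning not given), and libraries left out. The letters were not balanced between groups, with 2 N and 2 B in ELS-HFD and 3 N and 1 B in ELS. HFD had 1 N and 3 B, and control 3 N and 1 B.

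Named genes are those with the smallest interaction p, 12 per direction because none passed, with a mean of at least 1 CPM and a symbol that is not accession-like. From each list up to 2 members with the smallest p were named too, as were genes in the authors' calls. One gene is not reported here and was left out of its list. The contrast, lists and alternatives were chosen with earlier results of these data known.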

Additional observations from a re-analysis of the deposited data

Results flagged for a closer look

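In 340 sets of 4 libraries (the 52 named genes and 33 list levels in each group), the highest or lowest library stood apart from the other 3 in 15 (4.41%) by Dixon's gap ratio at the 95% level. Chance alone gives about 1 in 20, or 17 here. Control 4 accounts for 6 of the 15. Its Cartpt level was 9.54 CPM, against 17.6 to 18.6 CPM in the other controls, and its Gja1 level 772 CPM, against 506 to 537 CPM. In list level, the mean log2 CPM relative to all libraries, control 4 stood at 0.24 on the myelin list, 0.39 on the astrocyte list, 0.23 on the fatty acid metabolism list and 0.0445 on the insulin, leptin and appetite list, where it was the lowest control. Control 3 was apart on the red cell list at -0.27.

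In the ELS-HFD group, Ust stood at 13.0 CPM in ELS-HFD 2, and Rasd2 at 193.6 CPM in ELS-HFD 4, which also stood at 0.33 on the excitatory neuron list. ELS-HFD 3 was low in Stard4 at 9.11 CPM, against 10.7 to 10.8 CPM, and in Tet1 at 1.28 CPM, against 2.47 to 2.63 CPM. Among ELS libraries, Nol12 was at 8.10 CPM in ELS 2, against 9.83 to 9.91 CPM, Zbtb16 at 12.9 CPM in ELS 4, against 6.94 to 7.77 CPM, and Rasd2 at 232.2 CPM in ELS 3, against 153 to 158 CPM.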

How the results depend on the processing

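The interaction called 0 genes under all 24 alternatives. Genes at an unadjusted p under 0.05 numbered 318 with median-of-ratios scaling, 374 with no filter, 442 with the library-name letter as a covariate, 665 without ELS 1, ELS 2 and ELS-HFD 1, 957 without ELS 3 and ELS 4, and 215 to 627 with 1 library left out, beside 317. With the replicate number as a block the interaction called 0 genes (304 at an unadjusted p under 0.05) and ELS-HFD minus ELS 1. Libraries of the same number in different groups had a median correlation of -0.12 between their deviations, beside -0.006 for other numbers. Of the 16 libraries, 5 correlated best with their own number. Differences in tissue makeup enter these deviations, so the check cannot decide whether the numbers pair the samples. ELS-HFD minus ELS called 5 genes in DESeq2, 116 without ELS 1, ELS 2 and ELS-HFD 1, 0 without ELS 3 and ELS 4, and 0 to 1 with 1 library left out. HFD minus control called 1 gene in DESeq2 and 1 in limma voom, and ELS minus control 23 without ELS 1, ELS 2 and ELS-HFD 1, a fit that leaves ELS 3 and ELS 4 as the ELS group. The cause of these shifts was not tested. Of the 24 genes named for small p-values, none turned its sign in 576 refitted values. The refits reuse libraries that chose these genes, so a kept sign is a description and no support. Among the other named genes, the 1 sign that turned was that of Ngfr, 0.61 without ELS 3 and ELS 4. Depth limits genes under 1 CPM, where the median SE of the interaction was 0.57, against 0.12 over 100 CPM.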
